A study of Daphnia magna with 30 samples.

Results

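The 100 *Daphnia magna* transcripts whose expression stood highest above all other photoperiods in the extreme short day, 4L:20D (4 hr of light and 20 hr of dark), are described here, out of 14338 *D. magna* transcripts on the microarray. They were chosen from the measured values. A transcript was eligible if it was well above background on 15 or more of 30 arrays and had a pooled standard deviation within photoperiods below 0.8 on the log2 scale. Eligible transcripts were ranked by a score, which is the 4L:20D mean minus the highest of the other 4 photoperiod means, divided by that standard deviation, and the 100 with the highest score were taken. Of all transcripts, 11860 passed the filter on dim probes, the limit on spread removed 1551 of these, and 10309 were eligible. The higher level of the members under 4L:20D is therefore how they were found, and it is given as a description with no test.

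All 30 animals belonged to the second experimental trial of the study. Each array held the RNA of a single adult female aged 21 days, of a culture founded from 1 individual, so that all animals shared a genotype. Neonates from 16L:8D cultures were raised under one of 5 photoperiods, which were 4L:20D (extreme short day), 8L:16D (short day), 12L:12D (equinox), 16L:8D (the control) and 20L:4D (extreme long day), with 3 exposure chambers per photoperiod and 2 animals, A and B, per chamber, or 6 animals per photoperiod. The chambers of a photoperiod stood in the same lit box, so box and photoperiod cannot be told apart. Whole animals were frozen early in the light phase, and any brood they carried went into the RNA. A change in the share of a tissue or of brood and a change in RNA per cell cannot be told apart either.

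*Daphnia magna* is a small freshwater crustacean that reproduces by cyclic parthenogenesis. Females bear clonal daughters while conditions stay favourable, and day length is among the cues, with food and crowding, that precede the production of males and of resting eggs. Short days stand for the late season in such animals.

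The names of transcripts and the sequences of their probes were taken from the annotation table of the study, which lists only transcripts that the study called and is thus not an independent sample of the array. It lists 19 of the 100 members and 6.04% of the eligible transcripts. Of these 19, 11 have a name that states a function (1 of them in the earlier annotation only), 5 are hypothetical or uncharacterized proteins and 3 have no match, while the other 81 members have no name in the sources used here. The probes of the members on which the results below turn are shown so that each transcript can be traced. They are printed in lower case, and their strand relative to the transcript is not stated.
DM00868P2, glucose dehydrogenase: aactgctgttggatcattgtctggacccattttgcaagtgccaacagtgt
DM09680P3, no name: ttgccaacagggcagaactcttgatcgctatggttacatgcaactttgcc
DM11399P1, hypothetical protein: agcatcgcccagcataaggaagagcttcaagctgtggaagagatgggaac
DM04058P1, chymotrypsin BI precursor: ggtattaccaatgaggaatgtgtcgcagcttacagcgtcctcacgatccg
DM06127P1, hypothetical protein with an earlier enzyme name: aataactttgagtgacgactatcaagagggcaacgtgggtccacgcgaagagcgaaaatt
DM09425P2, lysosomal alpha-glucosidase: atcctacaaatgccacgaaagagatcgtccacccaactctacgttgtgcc
DM15242P3, cyclin-dependent kinase 10: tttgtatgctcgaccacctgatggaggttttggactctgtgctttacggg
DM06782P2, sphingosine-1-phosphate phosphatase: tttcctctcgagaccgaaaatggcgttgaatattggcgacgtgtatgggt
DM03816P2, zinc finger protein 395: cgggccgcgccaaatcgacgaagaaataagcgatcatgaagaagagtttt
DM02769P2, glucosyl/glucuronosyl transferase: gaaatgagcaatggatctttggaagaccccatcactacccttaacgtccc
DM02287P2, sulfotransferase: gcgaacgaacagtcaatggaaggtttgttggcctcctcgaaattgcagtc
Among the 19 listed members, 16 probes have 50 bases and 3 have 60. Over the 171 pairs of these probes, the longest run of bases in common was 10 on the same strand and 9 on opposite strands, so no listed pair shared a long stretch. Their GC content ran from 38% to 56.7% with a median of 50%, against a median of 48% over the 953 listed probes with a sequence.

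Levels below are the log2 of the processed signal after subtraction of the array's 75th percentile, so that 0 is the 75th percentile and 1 unit is 2-fold. Between 10568 and 12900 transcripts per array were well above background, no probe was saturated on any array, and 98 members were above background on all 30 arrays. The exceptions were DM00868P2, above background on 29 arrays, and DM06782P2, on 26. In 3 members (DM11816P3, DM11862P2 and DM12594P1) 1 array had no value because its spot was an outlier.

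Members exceeded their next photoperiod by modest amounts. The mean of 4L:20D was 1.12-fold to 2.44-fold above the next highest photoperiod mean, with a median of 1.30-fold. Only 18 members were at least 1.5-fold above it and 4 at least 2-fold, and 9 were below 1.2-fold. Scores ran from 2.86 to 1.01 with a median of 1.19, and the standard deviation within photoperiods from 0.12 to 0.80 with a median of 0.31 (log2). The score thus admits small differences in transcripts that varied little between animals as well as larger differences in more variable ones. Relative to the 16L:8D control, the members were a median of 0.57 higher (log2) under 4L:20D, with a range of 0.20 to 2.36.

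The heat map of the members shows the 6 animals of 4L:20D as a raised block in which 2 animals were paler than the rest. Animals overlapped between groups in nearly all members. In 1 member all 6 animals of 4L:20D lay above all 24 other animals, as in 0.00697% of all transcripts, which is that member alone. In 5 members 5 of the 6 did so (DM11399P1, DM04058P1, DM07973P3, DM14832P4 and DM08051P1), and in 13 members none did. When the 2 animals of a chamber were averaged, 41 members had all 3 chambers of 4L:20D above the 12 other chambers, against 0.732% of all transcripts. Both shares are of the contrast used to choose the members.

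**Figure D1:**
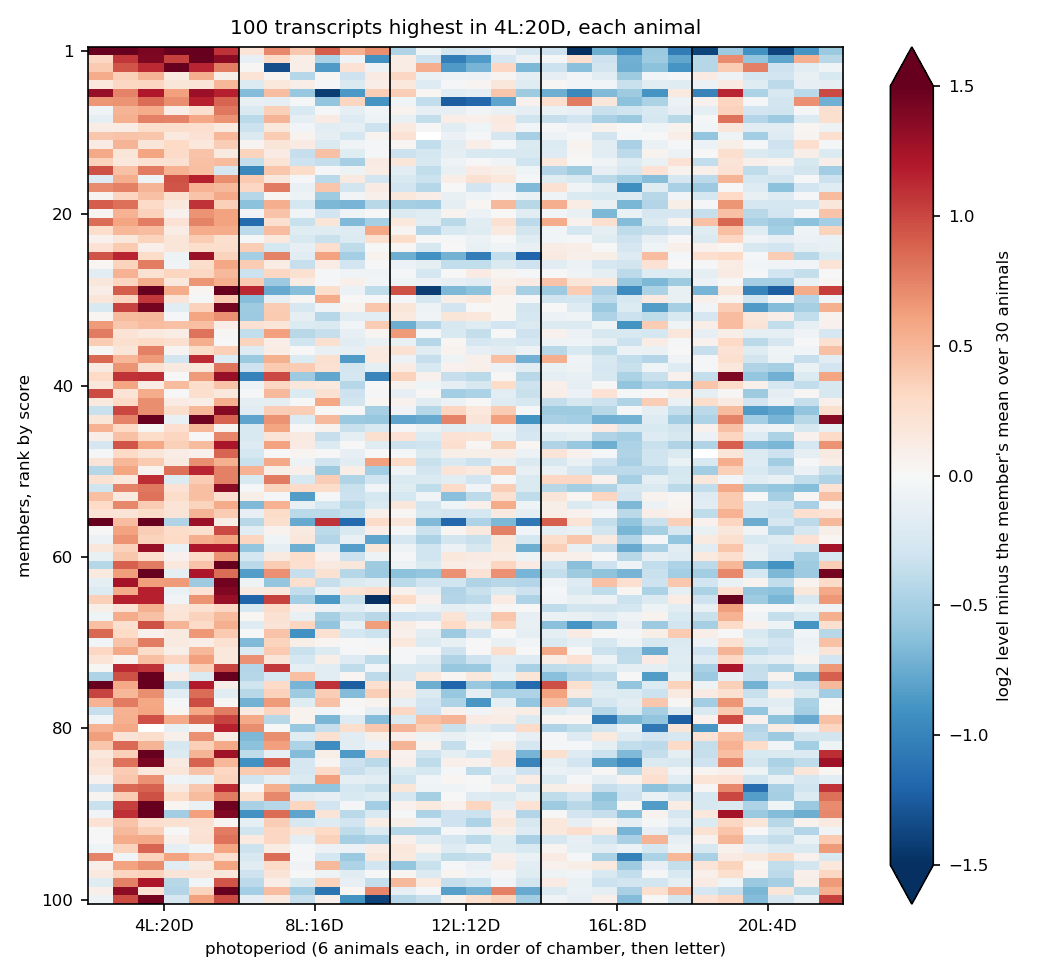
Level of each member (rows, ranked by score) in each of the 30 animals (columns, 6 per photoperiod), as the log2 level minus the mean of that member over all animals. In the 4L:20D block the columns of chamber 1 animal A and chamber 2 animal B are the palest, with member means of 0.31 and 0.25 against 0.57 to 0.77 in the other animals.

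The member with the highest score was DM00868P2, annotated as glucose dehydrogenase, an enzyme that oxidizes glucose and that is needed in *Drosophila* for the adult to leave the pupal case. Under 4L:20D its level was -2.75 at the lowest, -2.30 at the median and -2.10 at the highest. Under 8L:16D the same values were -3.64, -3.23 and -2.92, and under 12L:12D they were -4.29, -4.09 and -3.90. Neither 4L:20D and 8L:16D nor 8L:16D and 12L:12D overlapped in any animal. Under 16L:8D the values were -5.53, -4.67 and -4.14, and under 20L:4D they were -5.23, -4.73 and -4.39. The control overlapped with both 12L:12D and 20L:4D. The means were -2.36 ± 0.22 (SD, n = 6), -3.26 ± 0.25, -4.07 ± 0.14, -4.71 ± 0.48 and -4.78 ± 0.38 in order of rising light, so that the level stepped down with each longer day up to 16L:8D and was then level within its spread. The probe was dim, with a mean processed signal of 114.5 units under 4L:20D and 22.1 under 16L:8D, where 5 of 6 arrays were above background.

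The steps of glucose dehydrogenase among the longer days could be tested without 4L:20D, in a limma fit over all 14338 transcripts with Benjamini–Hochberg adjustment, although the rule had used the highest of these 4 means. The level was higher under 8L:16D than under 16L:8D by 1.45 ± 0.16 (log2, SE) with an adjusted p of 5.61e-05, and higher under 12L:12D by 0.65 ± 0.16 with an adjusted p of 0.0221. Under 20L:4D it differed from the control by -0.07 ± 0.16 with an adjusted p of 0.938. The step under 8L:16D kept an adjusted p below 0.05 in 25 of 26 alternatives, the exception being normexp background correction, which adds an offset larger than the signal of this probe in the control and gave 0.39 with an adjusted p of 0.883. The step under 12L:12D kept it in 19 of 26, and its adjusted p was 0.105 without 12L:12D chamber 2, 0.0993 without 12L:12D chamber 3, 0.0894 without 16L:8D chamber 1 and 0.1 without 16L:8D chamber 3. With positions on the main axes of spread as covariates it was 0.32 with an adjusted p of 0.948.

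Across all 30 arrays, the transcript whose pattern was most like that of glucose dehydrogenase was another member, DM09680P3, with a Pearson correlation of 0.81. This correlation holds the differences between photoperiods. Within photoperiods, after subtraction of the photoperiod means, the correlation of the pair was 0.41. The longest run of bases in common between the 2 probes on the same strand was 9. DM09680P3 lay between -0.81 and -0.36 under 4L:20D with a median of -0.68, and between -1.57 and -0.52 under 8L:16D with a median of -1.09. The medians were -1.59 under 12L:12D, -1.48 under 16L:8D and -1.54 under 20L:4D, and these 3 groups overlapped. The next most alike were DM01283P1 (0.73), DM12746P3 (0.71), DM06219P1 (0.69) and DM00935P3 (0.69), none of them a member. Besides glucose dehydrogenase, 4 members fell in mean at every step from 4L:20D to 20L:4D (DM08051P1, DM01549P2, DM08243P1 and DM05131P4).

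**Figure D2:**
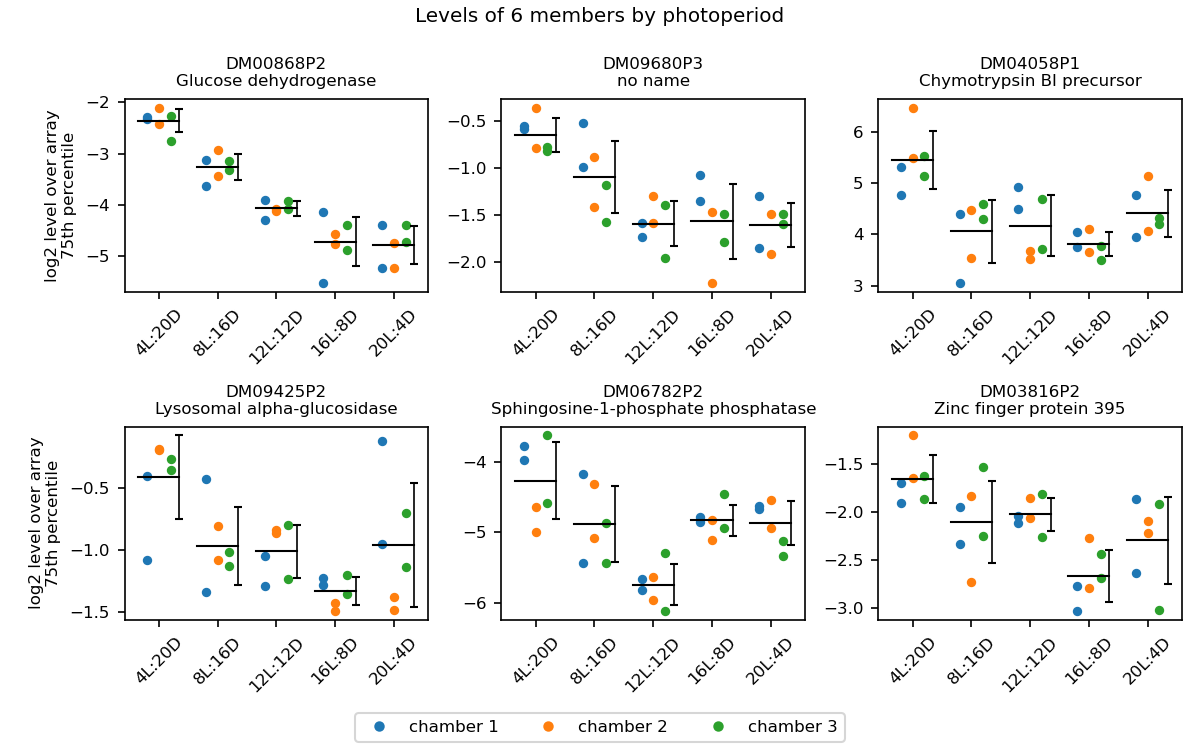
Log2 level of 6 members in each animal by photoperiod, with points coloured by chamber (2 animals each), a line at the mean of 6 animals and a bar of 1 SD on either side. Glucose dehydrogenase steps down from -2.36 under 4L:20D to -4.71 under 16L:8D, whereas sphingosine-1-phosphate phosphatase is lowest under 12L:12D and zinc finger protein 395 under 16L:8D.

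Among enzymes of digestion, the chymotrypsin BI precursor DM04058P1, a digestive serine protease, was the third member by score. Its level under 4L:20D was 4.77 at the lowest, 5.41 at the median and 6.47 at the highest. The animals of 8L:16D ran from 3.05 to 4.60, those of 12L:12D from 3.52 to 4.92, those of 16L:8D from 3.497 to 4.10 and those of 20L:4D from 3.95 to 5.14. The lowest animal of 4L:20D was exceeded by 1 animal of 20L:4D and 1 of 12L:12D. The mean of 4L:20D was 2.07-fold above that of 20L:4D, the next highest. Chymotrypsin did not vary together with the other members, since its mean correlation with them within photoperiods was -0.09, the lowest of all 100.

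Lysosomal alpha-glucosidase (DM09425P2), which releases glucose from glycogen in lysosomes, was the other member of the digestion list. Under 4L:20D it ran from -1.08 to -0.18 with a median of -0.31, and under 16L:8D from -1.49 to -1.20 with a median of -1.32. Its highest value of all, -0.12, belonged to an animal of 20L:4D, so no animal of 4L:20D lay above all others. The mean of 4L:20D was 1.46-fold above that of 20L:4D. This member kept its place under all 31 alternatives to the rule, as did glucose dehydrogenase, DM11399P1, DM12478P1, DM11328P1, DM08684P1 and DM06926P4.

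DM11399P1, a hypothetical protein, had the largest difference of all members, 2.44-fold over 20L:4D, or 1.28 on the log2 scale of the deposited table. This difference was 0.69 with normexp background correction and 0.75 with the mean of the spike-in probes as a covariate, where that of the chymotrypsin precursor was larger, at 1.11 and 0.99. It was also smaller than that of chymotrypsin, at 1.12 against 1.21, without the second scan day. Its levels under 4L:20D ran from -2.58 to -1.33 with a median of -1.68, and the highest animal of any other photoperiod stood at -2.18. A single animal of 4L:20D fell below that value. DM06127P1, a hypothetical protein whose earlier annotation was the enzyme that makes CDP-diacylglycerol for phospholipid synthesis, ran from 0.90 to 1.59 under 4L:20D with a median of 1.47. It was 2.07-fold above 20L:4D in the mean, where 1 animal reached 1.44 while the median was -0.03. The remaining member at 2-fold or more, DM12714P1, has no name and was 2.09-fold above 8L:16D. Under 4L:20D it stood at -1.54 in chamber 2 animal A and -2.04 in chamber 3 animal B. The other animals of 4L:20D lay between -3.93 and -3.05, below the highest animal of 8L:16D at -2.83. This member was kept under 13 of the 31 alternatives to the rule.

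The members with names in signalling were each less than 2-fold above their next photoperiod. Cyclin-dependent kinase 10 (DM15242P3), a protein kinase, ran from -0.87 to -0.34 under 4L:20D and from -1.33 to -0.95 under 16L:8D, so that these 2 groups did not overlap. Its mean under 4L:20D was 1.24-fold above 20L:4D, where 1 animal stood at -0.44. Sphingosine-1-phosphate phosphatase (DM06782P2), which removes the phosphate from a lipid messenger, ran from -5.00 to -3.63 under 4L:20D and from -5.12 to -4.46 under 16L:8D, which overlap. Its mean under 4L:20D was 0.56 (log2) above the next photoperiod. Zinc finger protein 395 (DM03816P2) ran from -1.91 to -1.20 under 4L:20D and from -3.03 to -2.27 under 16L:8D, without overlap, and was 0.37 (log2) above its next photoperiod. That difference was 0.09 with slide as a block, 0.20 with normexp and 0.40 with positions on the main axes of spread as covariates. Among members not named for signalling, D-dopachrome decarboxylase (DM09407P4) was 1.30-fold above 8L:16D. The hemocyte protein-glutamine gamma-glutamyltransferase (DM10239P1), of a family that cross-links proteins in arthropod clotting, was 1.251-fold above its next photoperiod. The probe of this transferase was dim, and with normexp background correction its difference was -0.01 (log2).

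Among conjugating enzymes, the glucosyl/glucuronosyl transferase DM02769P2, of a family that attaches sugars to small molecules, ran from -2.42 to -0.86 under 4L:20D and from -2.40 to -2.10 under 16L:8D. The lowest animal of 4L:20D thus lay below every control animal while its median of -1.33 lay above them. The sulfotransferase DM02287P2, which transfers sulfate to small molecules, ran from -2.18 to -1.43 under 4L:20D, and under 16L:8D from -2.68 to -1.68. Means of 4L:20D were 1.36-fold and 1.28-fold above the next photoperiod for these enzymes.

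The other members of the leading 20 had small spreads or no names. DM07973P3, DM12897P1, DM02533P1, DM06926P4 and DM14832P4 were 1.14-fold to 1.24-fold above the next photoperiod, at standard deviations within photoperiods of 0.12 to 0.20. DM12478P1, DM08684P1 and DM11816P3 were 1.29-fold to 1.31-fold above it. DM11328P1 was 1.75-fold, DM15398P1 1.51-fold, DM08051P1 1.44-fold and DM05910P2 1.43-fold above it. At the limit of the rule, the members just inside (DM09108P1, DM07554P1 and DM05784P4) had scores of 1.020, 1.019 and 1.013, and the transcripts just outside (DM12114P2, DM01404P2 and DM02362P2) had scores of 1.012, 1.008 and 1.007. The limit of 100 thus falls in an unbroken run of scores.

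Extreme short day was one of the photoperiods with many transcripts of high score. A score above 1 was reached by 106 transcripts highest under 4L:20D, 36 under 8L:16D, 51 under 12L:12D, 217 under 16L:8D and 74 under 20L:4D. Scores above 1.5 numbered 16 under 4L:20D and 36 under 16L:8D, the only photoperiods with more than 7. Of the eligible transcripts, 1836 (17.8%) had their highest mean under 4L:20D, fewer than under 16L:8D (3041), 20L:4D (2205) or 12L:12D (1867). These counts of the same arrays were not tested against each other.

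The order of the members' means in the other photoperiods did not follow day length. The next highest mean was that of 20L:4D in 34 members, 8L:16D in 31, 12L:12D in 21 and 16L:8D in 14. Over the 1836 eligible transcripts highest under 4L:20D the same shares were 33.1%, 27.1%, 27.02% and 12.8%. The lowest mean was that of 16L:8D for 46 members, 12L:12D for 30, 8L:16D for 13 and 20L:4D for 11, against 43.0%, 28.6%, 15.2% and 13.1% of the 1836. By these means the opposite extreme of day length was the most frequent runner-up, ahead of the neighbouring short day by 3 members in the 100. It was also the most frequent over the 1836, so this order is not particular to the members. Single animals raised the means of 20L:4D. The mean of the members was 0.43 in its chamber 1 animal B and 0.27 in its chamber 3 animal B. In its other animals it was between -0.26 and -0.11. The median over animals was -0.06 under 8L:16D, -0.09 under 12L:12D, -0.12 under 16L:8D and -0.12 under 20L:4D.

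Differences among the other 4 photoperiods were tested without any contrast to 4L:20D. In limma's F test over these 4, 3 members had an unadjusted p below 0.01, against 10.03% of all transcripts, and 2 had an adjusted p below 0.05, against 4.59%. They were glucose dehydrogenase (adjusted p 2.33e-05), sphingosine-1-phosphate phosphatase (adjusted p 0.0199) and, at the unadjusted threshold only, DM09680P3 (p 0.00857, adjusted p 0.0924). The count of 3 became 5 without 20L:4D chamber 2 (11.3% of all transcripts in the same fit), 5 with slide as a block (6.63%) and 0 with normexp (5.39%). Because the rule requires a low standard deviation and low means in all 4 photoperiods relative to 4L:20D, the share of members is not an independent measure of stability.

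Compared with the 16L:8D control, 1 member was called under 8L:16D at an unadjusted p below 0.05 and a change of at least 1.5-fold, against 7.24% of all transcripts. It was glucose dehydrogenase, the member also past an adjusted p of 0.05. The median difference of the members was 0.11 (log2), against -0.03 over all transcripts. The count was 2 or 3 without any 1 of the chambers of 8L:16D or 16L:8D, where 4.82% to 9.18% of all transcripts were called. It was 5 with slide as a block (8.43% of all transcripts), 3 with positions on the main axes of spread as covariates (3.31%) and 0 with normexp (3.12%). With the mean of the spike-in probes as a covariate it was 12, all higher, above the 7.14% of all transcripts in that fit, whereas in the fit without it the count lay below the share of all transcripts.

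Under 12L:12D, 8 members were called against 16L:8D, 4 higher and 4 lower, against 13.4% of all transcripts. Higher were glucose dehydrogenase, DM06127P1, zinc finger protein 395 and DM06319P2, and lower were DM11328P1, sphingosine-1-phosphate phosphatase, DM10825P2 and DM06825P2. Past an adjusted p of 0.05 were glucose dehydrogenase, sphingosine-1-phosphate phosphatase (-0.92 ± 0.20, adjusted p 0.0150) and zinc finger protein 395 (0.64 ± 0.19, adjusted p 0.0409). Sphingosine-1-phosphate phosphatase under 12L:12D ran from -6.12 to -5.29, below every control animal, with 3 of 6 arrays above background. Its difference was -0.02 with normexp, and its adjusted p rose to between 0.0696 and 0.0995 without 12L:12D chamber 2 or 3 or 16L:8D chamber 1 or 3. It was past the adjusted threshold in 20 of 26 alternatives. Zinc finger protein 395 was past it in 14 of 26, and its difference was 0.14 once positions on the main axes were included. With chamber as a random block, which takes account of the 2 animals sharing a chamber, its adjusted p was 0.0648, while those of sphingosine-1-phosphate phosphatase (0.0276) and glucose dehydrogenase (0.0401) stayed below 0.05. The count of 8 became 3 without 16L:8D chamber 1, where 11.1% of all transcripts were called, and 2 with normexp, where 8.22% were. With positions on the main axes it was 4, against 2.82% of all transcripts, so that the members were below the share of all transcripts in the fit without the axes and above it in the fit with them.

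Under 20L:4D, 3 members were called against 16L:8D, all higher, against 1.94% of all transcripts in either direction, 0.830% higher and 1.11% lower. They were the chymotrypsin BI precursor (0.60 ± 0.28), DM06127P1 (0.60 ± 0.28) and DM06319P2, a hypothetical protein (0.62 ± 0.27), with adjusted p between 0.786 and 0.810. The count was 9 without 20L:4D chamber 2, where 7.05% of all transcripts were called. It was 0 without 20L:4D chamber 1 or 16L:8D chamber 2, and 1 without 20L:4D chamber 3 or 16L:8D chamber 1 or 3, where between 1.60% and 2.46% were. At an adjusted p of 0.05 no member and none of the 14338 transcripts was past the threshold under 20L:4D, while 278 transcripts were called at the unadjusted threshold.

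**Figure D3:**
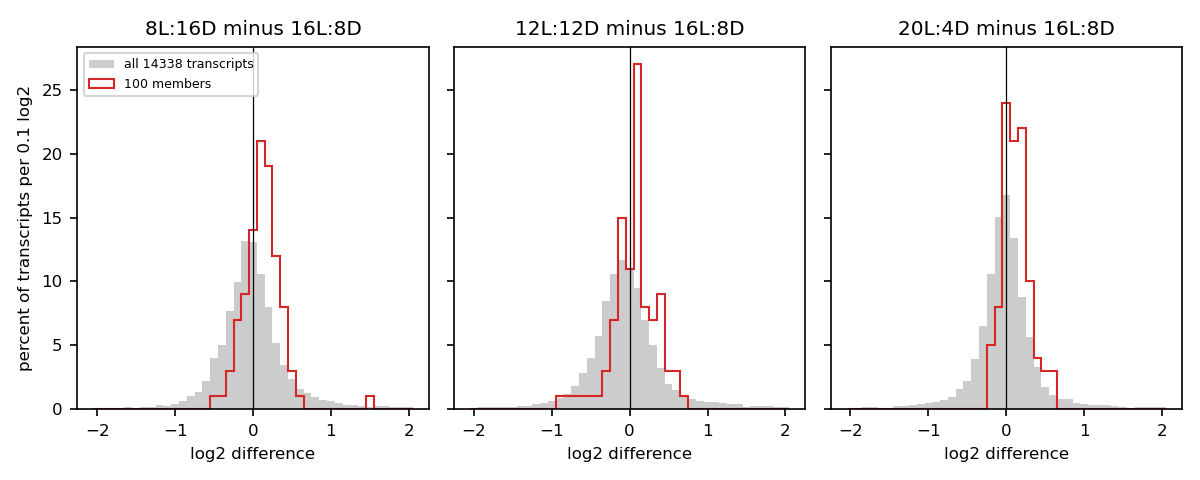
Distribution of the limma log2 difference from 16L:8D under 8L:16D, 12L:12D and 20L:4D, for all 14338 transcripts (grey bars) and the 100 members (red outline), as the percent of transcripts in each step of 0.1. Values beyond the axes are not drawn. The members lie slightly to the right of all transcripts, with medians of 0.11, 0.09 and 0.11 against -0.03, -0.06 and -0.02.

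The 4L:20D level was also read in chambers that had no part in the choice. The rule was applied with each 4L:20D chamber left out in turn, and the 100 transcripts so chosen were read in the left-out chamber, with the means of the other photoperiods kept. In the left-out chamber 82, 77 and 90 of the 100 lay above the highest other mean for chambers 1, 2 and 3. Over all eligible transcripts the shares were 24.8%, 17.3% and 25.4%. Neither the counts nor their contrast with these shares is a test, since the mean they are set against is one that the rule used. Low means in the other photoperiods favour a transcript in the choice and in the reading alike. The median difference was 0.16, 0.20 and 0.31 (log2) in the left-out chamber and 0.42, 0.44 and 0.37 in the chambers that chose. The median left-out difference was thus smaller than that in the choosing chambers in every case. The difference was at least 1.5-fold in 7, 11 and 21 transcripts in the left-out chamber, against 35, 29 and 20 in the choosing chambers. The chambers shared a box and the other photoperiods' animals, so these are not independent experiments.

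**Figure D4:**
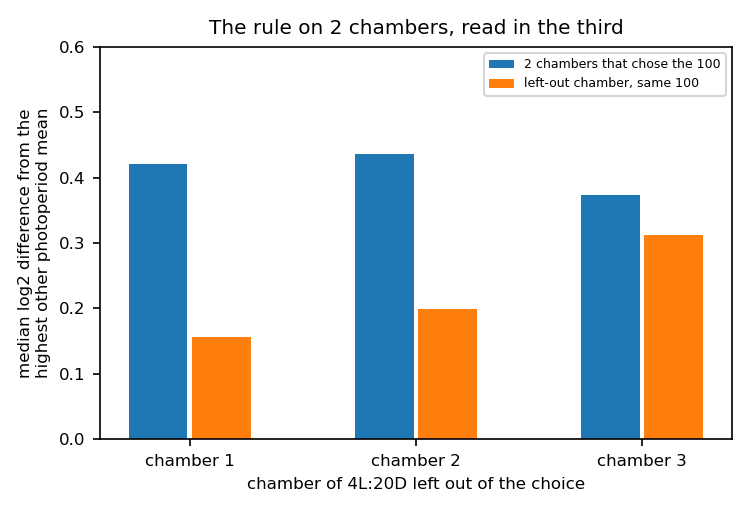
Median log2 difference from the highest other photoperiod mean, for each 4L:20D chamber left out, of the 100 transcripts chosen on the remaining chambers (blue, in those chambers, and orange, in the left-out chamber). The orange bars (0.16, 0.20 and 0.31) lie below the blue bars (0.42, 0.44 and 0.37).

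Which transcripts were chosen depended on the chambers. Leaving out 4L:20D chamber 1, 2 or 3 kept 61, 62 and 64 of the 100 members, and 26 members were kept in all 3 cases. The 10 members with the highest scores were kept whichever of the 15 chambers was left out.

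The animals of 4L:20D did not carry the members equally. The mean of the 100 members in the deposited table was 0.77 in chamber 2 animal A, 0.73 in chamber 3 animal B, 0.63 in chamber 1 animal B and 0.57 in chamber 3 animal A. It was 0.31 in chamber 1 animal A and 0.25 in chamber 2 animal B. These last 2 animals were the lowest of their photoperiod in 37 and 36 members, and they came from different chambers. Among the other 24 animals, 20L:4D chamber 1 animal B (0.43), 8L:16D chamber 1 animal B (0.34) and 20L:4D chamber 3 animal B (0.27) lay above the lowest animal of 4L:20D, and all other animals between -0.33 and 0.11. A member mean in the range of 4L:20D was thus seen in single animals of other photoperiods, not in a whole chamber.

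**Figure D5:**
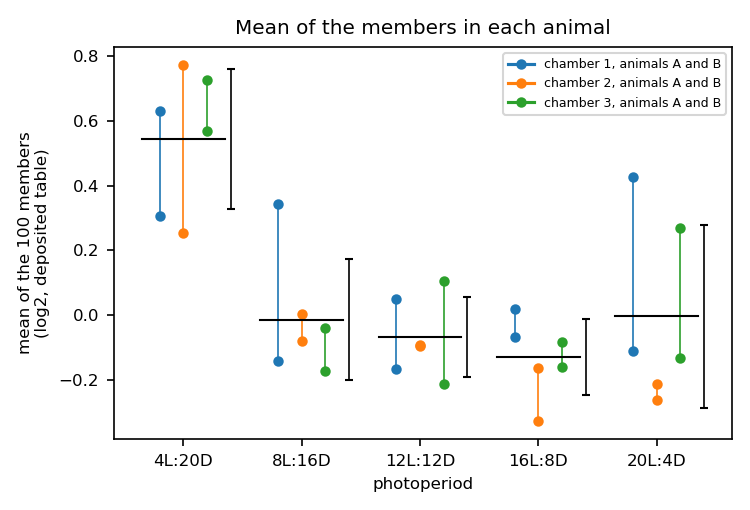
Mean of the 100 members in each animal (deposited log2 table) by photoperiod, with the 2 animals of a chamber joined, a line at the mean of 6 animals and a bar of 1 SD on either side. Means were 0.54 under 4L:20D and between -0.13 and 0.00 elsewhere, and 3 animals of 8L:16D and 20L:4D reach 0.27 to 0.43.

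The members tended to vary together between animals of the same photoperiod. After subtraction of photoperiod means, the mean correlation over pairs of members was 0.28 over 30 animals, and 85.3% of pairs were positive, against a mean of 0.04 over all eligible transcripts. Sets of 100 chosen by the same rule gave 0.16 for 8L:16D, 0.33 for 12L:12D, 0.34 for 16L:8D and 0.18 for 20L:4D, so this tendency was not particular to 4L:20D. The main 2 axes of spread within photoperiods, which held 41.3% and 18.9% of that spread over all transcripts, held a median of 30.2% of it in the 97 members with a value on every array and 24.5% in eligible transcripts. The correlation with the first axis was above 0 in 91 members, with a median of 0.40, and above 0 in 39.01% of eligible transcripts. Mean positions on this axis were 54.3 under 4L:20D, -9.3 under 8L:16D, -3.0 under 12L:12D, -41.2 under 16L:8D and -0.8 under 20L:4D. Their SDs were 24.1 to 74.0. A rule that takes high means under 4L:20D can favour transcripts that rise along this axis, so these correlations are not separate from the choice. Glucose dehydrogenase had a median correlation of 0.15 with the other 99 members.

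A technical measure also varied with most members within photoperiods. The E1A spike-in probes, which report control RNA added before labelling, had a mean log2 level over the array's 75th percentile of 0.53 ± 0.12 (SD, n = 6) under 4L:20D, 0.20 ± 0.17 under 8L:16D, 0.44 ± 0.10 under 12L:12D, 0.56 ± 0.18 under 16L:8D and 0.38 ± 0.09 under 20L:4D. Within photoperiods their level correlated above 0 with 92 of the 100 members, with a median of 0.31, and with 54.4% of eligible transcripts, with a median of 0.03. Their part in the members' levels was not tested. With the spike-in mean as a covariate the median difference of the members over the next photoperiod was 0.22 in place of 0.39 (log2) and 95 members stayed above it. With positions on the main axes as covariates it was 0.22 with 99 members above, and with slide as a block 0.34 with all 100. With normexp it was 0.32 with 98 above, sphingosine-1-phosphate phosphatase being at -0.05. Without the arrays of the second scan day, which held no animal of 4L:20D, it was 0.41 with all 100. The difference of glucose dehydrogenase was 0.91 with the spike-in mean, 0.80 with the axes, 1.00 with the slide and 0.53 with normexp, against 0.91 without any of them. Of the 28 members named by rule, 16 had a difference more than 1.5 times smaller with the spike-in mean, 12 with the axes, 10 with normexp and 8 with the slide, and none had one more than 1.5 times larger.

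The functional lists held few members. Of the transcripts that the annotation table lists, 84 of 623 eligible ones were highest under 4L:20D and 19 were members. Of the 16 transcripts in the digestion list, 10 were eligible, 5 of them highest under 4L:20D and 2 of them members. In this list 4 were higher and 4 lower under 8L:16D than under 16L:8D, 6 higher and 2 lower under 12L:12D, and 2 higher and none lower under 20L:4D. The detoxification list had 17 transcripts and 2 members, the sulfotransferase and the glucosyl/glucuronosyl transferase. It had 4 higher and 5 lower under 8L:16D, the same counts under 12L:12D, and 1 of each under 20L:4D.

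The energy metabolism list had 35 transcripts with glucose dehydrogenase as the single member. In it 13 were higher and 6 lower in both 8L:16D and 12L:12D, and 1 higher and 2 lower under 20L:4D. The signalling and transcription list had 41 transcripts and 3 members, with 5 higher and 10 lower under 8L:16D, 6 higher and 11 lower under 12L:12D, and 3 higher and 4 lower under 20L:4D. Beside these, all transcripts were called higher in 3.02% and lower in 4.22% under 8L:16D, and higher in 6.61% and lower in 6.74% under 12L:12D. Since the table lists transcripts that the study called, the higher shares in the lists are not a result about them.

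The other lists held no member. None of the 63 eligible transcripts for RNA and translation and none of the 23 for proteasome and folding had its highest mean under 4L:20D, nor did any of the 4 for circadian clock and light, 4 for sex determination and hormones, 3 for oxygen transport and stress, 3 for membrane transport or 2 for egg and yolk. In the cytoskeleton and muscle list, 8 of 13 eligible transcripts were highest under 4L:20D without entering the members, and in the neural signalling list 1 of 5 and in the cuticle and chitin list 1 of 3. Beside these stand 13.5% of the eligible transcripts in the annotation table and 17.8% of all eligible transcripts, and at such shares a list of 2 to 5 transcripts would hold at most about 1, so the short lists say little. The longer lists, too, hold only transcripts that the study called. In that for RNA and translation, 0 were higher and 21 lower under 8L:16D than under 16L:8D, and 0 higher and 35 lower under 12L:12D. Their counts are thus not a result about these functions.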

How the data were processed

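Fluorescence intensity was extracted by the authors with Agilent Feature Extraction (version 10.7.3.1 per the file headers, 9.5.1 per the submitters' notes), and the deposited processed signal is linear and background-subtracted. Per the labels and the study's methods, a second deposited file holds log2 expression that GeneSpring had set relative to each array's 75th percentile and then to a per-probe median. The rule and scores used that table.

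For levels and tests, 188 outlier spots among 456240 were dropped, spots of a probe averaged, log2 taken and the 75th percentile of each array (between 477 and 705) subtracted. The correlation with the deposited values was at least 0.9997 on every array. Photoperiods were compared in limma 3.58.1 (R 4.3.3) over 14338 transcripts, in a model of photoperiod by animal letter, leaving 20 residual degrees of freedom. P values are two-sided, adjusted p values are Benjamini–Hochberg over all transcripts, and errors of differences are limma's standard errors. Animals of a chamber count as separate samples, so p values rest in part on spread within chambers. The fit was tested on simulated data. The number of arrays limits the precision.

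The members and lists were chosen with earlier results of these data known. Named are the 20 highest scores, members whose name holds a keyword of a fixed list, the transcripts beside the limit, the 5 members with the smallest p among the other 4 photoperiods and the 5 probes most alike to the leading member. Others are named from counts after their values were seen. Alternatives were other normalizations, background corrections, filters, spread limits, blocks and covariates, and leaving out each of the 15 chambers.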

Additional observations from a re-analysis of the deposited data

Results flagged for a closer look

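Single animals stood apart from the rest of their photoperiod in 7 of the 140 combinations of a named member and a photoperiod, or 5%, where chance alone sets apart about 1 in 20 groups. The gap to the nearest of the other animals, divided by the range of the 6, exceeded Dixon's critical value in each. In 4L:20D this was lysosomal alpha-glucosidase (DM09425P2), at -1.08 in chamber 1 animal A while the next lowest animal was at -0.40. In 8L:16D, chamber 1 animal B was high in DM08684P1 (-0.0289, next -0.41) and in DM15398P1 (-0.40, next -1.21), and chamber 1 animal A was low in DM08051P1 (-4.65, next -3.76). Under 16L:8D, chamber 2 animal B was low in DM12478P1 (-1.005, next -0.65) and chamber 2 animal A was low in D-dopachrome decarboxylase DM09407P4 (-2.56, next -2.14). Under 12L:12D, chamber 3 animal A was high in the sulfotransferase DM02287P2 (-1.93, next -2.35). All values are log2 levels over the 75th percentile of the array.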

How the results depend on the processing

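Of the 100 members, the rule kept 66 with normexp background correction, 53 with the median of the animals in place of the mean, 42 with slide as a block, and, chosen after seeing the data, 45 with positions on the 2 main axes as covariates and 49 with the spike-in mean as a covariate. It kept 61 to 94 when a chamber was left out, and 69 (chosen after seeing the data) without the arrays of the second scan day, which held no animal of 4L:20D. With normexp, 0 members differed among the other 4 photoperiods, and 0 were called in 8L:16D against the control, 2 at 12L:12D and 0 in 20L:4D. These fits called 5.39%, 3.12%, 8.22% and 0.677% of all transcripts. The median difference of all transcripts moved from -0.06 to 0.13 under 12L:12D and from -0.02 to 0.11 under 20L:4D. The offset of normexp makes differences of dim probes smaller by construction. This fit also started from median signals in place of the processed signal. With slide as a block these numbers, in the same order, were 5, 5, 12 and 5 (6.63%, 8.43%, 15.3% and 5.26% of all transcripts). With the spike-in mean they were 4, 12, 6 and 5 (9.67%, 7.14%, 13.3% and 3.57%), and with the axes 4, 3, 4 and 1 (2.27%, 3.31%, 2.82% and 1.66%). In 20L:4D, 1 member was called with quantile normalization (1.91%) and 1 with chamber as a random block (1.67%). Leaving out a chamber gave 2 to 5 members differing among the 4 photoperiods, and 1 to 3 called in 8L:16D, 3 to 9 at 12L:12D and 0 to 9 in 20L:4D. The cause of these changes was not tested. Differences from the control were followed through the alternatives for DM00868P2 and, at 12L:12D only, for DM06782P2 and DM03816P2. None of these differences changed direction while past the adjusted threshold. The same was not tested for the other named members. Replicate numbers marked chambers and did not pair them: of 30 same-numbered pairs of chambers across photoperiods, 8 correlated above 0.1 in their deviations (mean -0.01). With the replicate block the rule kept 94 members, 3 differed among the other 4 photoperiods, and 1 was called in 8L:16D, 8 at 12L:12D and 2 in 20L:4D. No call on the followed members changed at the adjusted threshold. Depth of signal limits DM00868P2 and DM06782P2, the only members not above background on all 30 arrays. It also limits DM10239P1, whose mean processed signal ran from 26.6 under 16L:8D to 41.9 under 4L:20D.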
